A study of Mus musculus with 4 samples.

Results

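Capn3, Fam184b, Gpr12, Parm1, Ramp3 and Rasal1 are 6 genes whose signal was low in the mouse dentate gyrus (DG) after repeated electroconvulsive stimulation (ECS) and after chronic fluoxetine. They were picked from the measured ratios on these same arrays as decreases shared by both treatments, outside the study's markers of mature granule cells (GCs), and no numerical limit was set for the choice. Their decreases are therefore described here and not tested. The 6 genes have 7 probe sets on the array, 2 for Parm1 and 1 for each of the other genes, and the mean signal of all 7 over the 4 arrays reached 50, the minimum used here for a measured probe set. They are 6 of 7935 genes measured in this sense.

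The study compared pools of DG RNA from male C57Bl/6 mice, bought at 8 weeks of age. The ECS pool came from mice given 11 sessions of bilateral ECS under isoflurane anaesthesia, and the sham pool from mice handled in the same way without shock. The fluoxetine pool came from 3 mice given this selective serotonin reuptake inhibitor (SSRI) at 22 mg/kg/day for 4 weeks in drinking water with 0.2% saccharin, and the vehicle pool from mice on water for 28 days. The 3 fluoxetine-treated mice were selected for weak frequency facilitation at the mossy fiber synapse, so that pool stands for responding animals only. The labels place the sham and ECS arrays at 6 h after the last session, whereas the methods of the study give a later time.

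Each group was 1 pool on 1 array, so no replicate error exists and no p-value is given. The arrays were not scaled to a common level. The median signal of the measured probe sets was 236 for sham, 219 for ECS, 335 for vehicle and 365 for fluoxetine. Over the 7935 genes the log2 ratio had a median of -0.10 for ECS over sham and 0.12 for fluoxetine over vehicle. Sham and vehicle were the only untreated pools, and these 2 also differ in handling. The scaled median absolute deviation of their log2 ratio over the 500 probe sets nearest in signal, after centring on the median, is called the control spread. For the 7 probe sets it was between 0.19 and 0.37 on the log2 scale, lowest for the brighter probe set of Parm1 and highest for Ramp3. A change of at least 1.5-fold was counted as higher or lower.

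The 6 genes have different roles. Gpr12 encodes an orphan receptor that couples to the stimulatory G protein and raises cyclic AMP without a known ligand. Ramp3 encodes receptor activity-modifying protein 3, a membrane protein that carries the calcitonin receptor-like receptor to the cell surface and makes it a receptor for adrenomedullin. Rasal1 encodes a GTPase-activating protein that switches Ras off and is drawn to the plasma membrane by calcium. Capn3 encodes calpain 3, a calcium-dependent cysteine protease best known from skeletal muscle, where its loss causes a limb-girdle muscular dystrophy. Parm1 encodes a mucin-like transmembrane glycoprotein first found as an androgen-regulated gene of the prostate. In the DG, GCs are the principal neurons, and calbindin, encoded by Calb1, is the usual marker of their mature state.

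**Figure D1:**
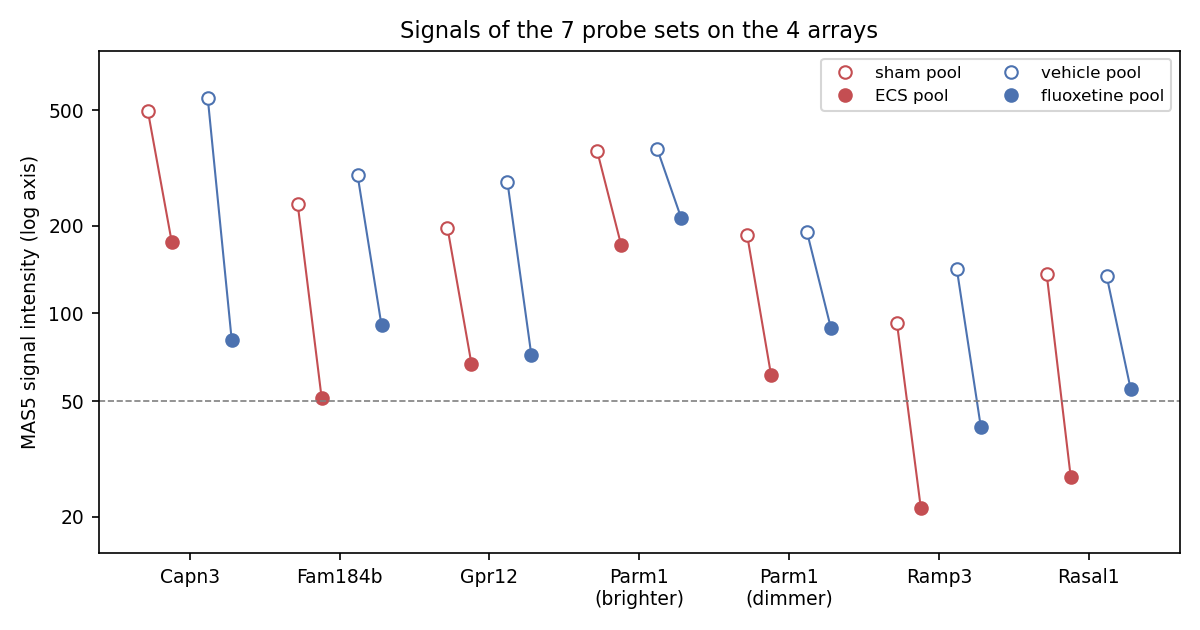
MAS5 signal intensity (log axis) of the 7 probe sets on the 4 arrays, with open points for control pools, filled points for treated pools, and lines joining the arrays of 1 comparison. Each treated pool lies below its control for every probe set, and the dashed line marks a signal of 50, which Ramp3 passed under in both treated pools and Rasal1 after ECS.

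All 6 genes were lower by at least 1.5-fold with both treatments, as were 1.9% of the 7935 measured genes (1.88% after median-centring and 1.73% with signals below 50 set to 50). Nothing is read from this share because the genes were picked for it. Their log2 ratios had a median of -1.84 (ECS) and -1.76 (fluoxetine). With ECS the values went from -1.07 for Parm1 to -2.31 for Rasal1, and with fluoxetine from -0.79 for Parm1 to -2.76 for Capn3. In units of the control spread, the decreases of the 6 genes lay between 3.69 (Rasal1 with fluoxetine) and 14 (Capn3 with fluoxetine). These multiples describe ratios the genes were picked on, and the spread comes from other probe sets of like signal. For Capn3, Parm1 and Rasal1, sham stood above vehicle by 0.36, 0.47 and 0.52 on the centred log2 scale, more than their control spread. For Fam184b, Gpr12 and Ramp3 the control pools differed by less than it. In pooled tissue, fewer cells of a type and less RNA per cell cannot be told apart.

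The receptor gene Gpr12 gave 197 on the sham array against 67.3 on the ECS array, and 284 on the vehicle array against 72 on the fluoxetine array. As deposited, both treated pools were below both control pools and close to each other, although the fluoxetine array as a whole was brighter than the ECS array. The ratios were a 2.93-fold and a 3.95-fold decrease (log2 -1.55 and -1.98), at a control spread of 0.28. Once the arrays were centred, the sham and vehicle pools differed by only -0.02 on the log2 scale. The centred log2 ratios were -1.44 with ECS and -2.11 with fluoxetine, so the fluoxetine pool was then the lower of the treated pools.

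Ramp3 was the dimmest of the 6 genes. Sham gave a signal of 93.0 and ECS 21.4, while vehicle gave 142 and fluoxetine 40.8. Both treated pools were thus under 50, where ratios of signals are poorly defined. The log2 ratios were -2.12 and -1.80 as deposited, at a control spread of 0.37, and -0.90 and -1.51 with signals below 50 set to 50. With that floor the decrease with ECS was 1.86-fold in place of 4.35-fold, and the order of the treatments turned round.

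Rasal1 started from 136 in sham and 135 in vehicle, and was at 27.5 after ECS and 55.1 after fluoxetine. The 2 control pools had almost the same deposited signal, although the sham array as a whole was the dimmer one, so that sham stood above vehicle by 0.52 on the centred log2 scale. The decrease was 4.95-fold with ECS and 2.44-fold with fluoxetine (log2 -2.31 and -1.29, control spread 0.35). As deposited this was the third largest decrease with ECS among the 7935 genes. With signals below 50 set to 50 it was 2.72-fold, at place 23, and the difference between the treatments went from -1.02 to -0.16 on the log2 scale.

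Capn3 was the brightest of the 6 genes and differed most between the treatments. The controls were at 498 (sham) and 551 (vehicle), and the treated pools at 176 (ECS) and 81.1 (fluoxetine). The treated pools kept 35.3% of the control signal after ECS and 14.7% after fluoxetine. The log2 ratios were -1.50 and -2.76, at a control spread of 0.20. The decrease was larger with fluoxetine by 1.26 on the log2 scale as deposited and by 1.50 after median-centring. No signal was below 50, so the floor did not alter these values. With 1 array per group this difference was not tested.

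The little characterised gene Fam184b was at 238 in sham against 51.4 after ECS, and at 299 in vehicle against 91.0 after fluoxetine. The decrease was 4.64-fold with ECS and 3.29-fold with fluoxetine (log2 -2.21 and -1.72, control spread 0.25), and it was not altered by the floor, since the lowest signal was just above 50.

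Parm1 had the smallest decreases by its brighter probe set. The brighter of its probe sets gave 361 for sham, 172 for ECS, 368 for vehicle and 213 for fluoxetine. The log2 ratios of this probe set were -1.07 and -0.79, at a control spread of 0.19. The dimmer gave 187 for sham, 61.5 for ECS, 190.4 for vehicle and 88.9 for fluoxetine, with log2 ratios of -1.60 and -1.10. The 2 probe sets had the same direction and order of treatments, and in both sham stood above vehicle by 0.47 on the centred log2 scale. For this gene the control pool matters: with the control arrays exchanged and the arrays median-centred, the brighter probe set had -0.49 for ECS over vehicle, under 1.5-fold, and -1.39 for fluoxetine over sham.

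**Figure D2:**
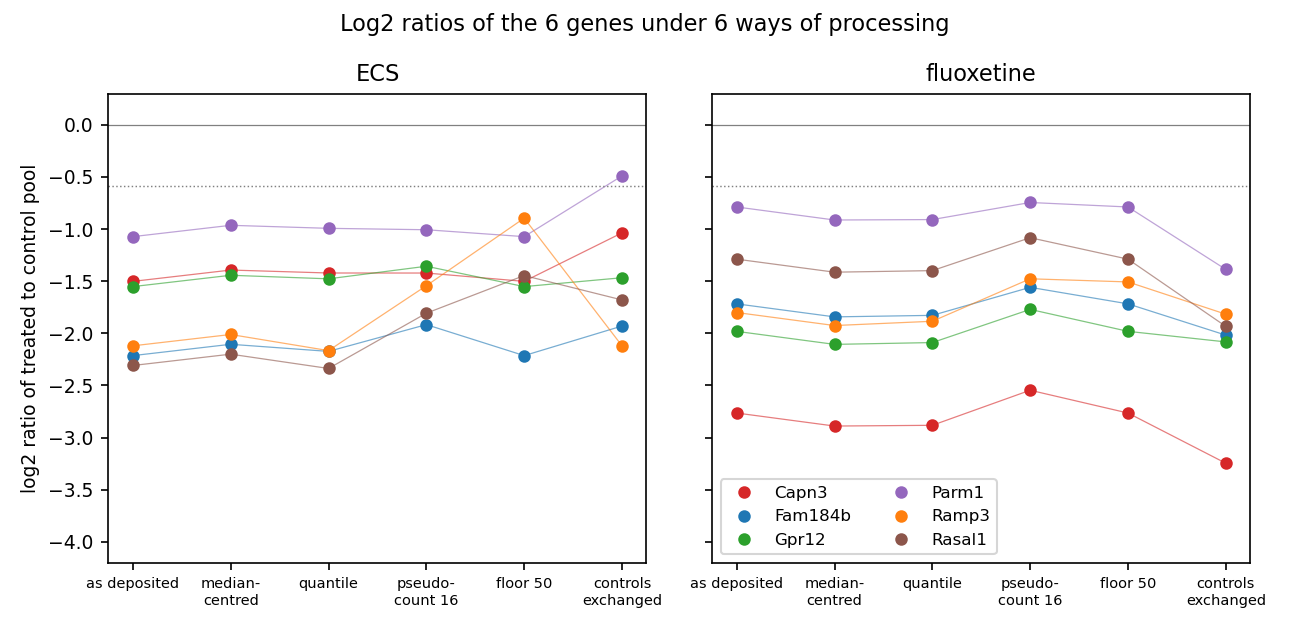
Log2 ratio of treated to control pool for the brightest probe set of each of the 6 genes, with ECS (left) and fluoxetine (right), as deposited and under 5 other ways of processing; the dotted line marks a 1.5-fold decrease. The points keep to a narrow band under median-centring and quantile normalization, Ramp3 comes up to -0.90 with ECS under the floor of 50, and Parm1 crosses the line with ECS when the control arrays are exchanged.

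Among the 7935 genes ordered by the weaker of their decreases, Ramp3 was at place 3, Fam184b at 4, Gpr12 at 5, Capn3 at 7, Rasal1 at 16 and Parm1 at 69. With signals below 50 set to 50, Fam184b, Gpr12 and Capn3 were at places 3, 4 and 6, Rasal1 was at 13, Ramp3 at 44 and Parm1 at 63. The place of Ramp3 thus depended on signals under 50 more than that of the other genes did. By size, 5 of the 6 genes were lower at least 2-fold with both treatments in their brightest probe set, the exception being Parm1. So were 0.491% of all measured genes. The dimmer probe set of Parm1 was lower 3.03-fold with ECS and 2.14-fold with fluoxetine, so this exception depends on the probe set. With the floor of 50, 4 of the 6 genes and 0.428% of all measured genes were lower at least 2-fold with both.

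**Figure D3:**
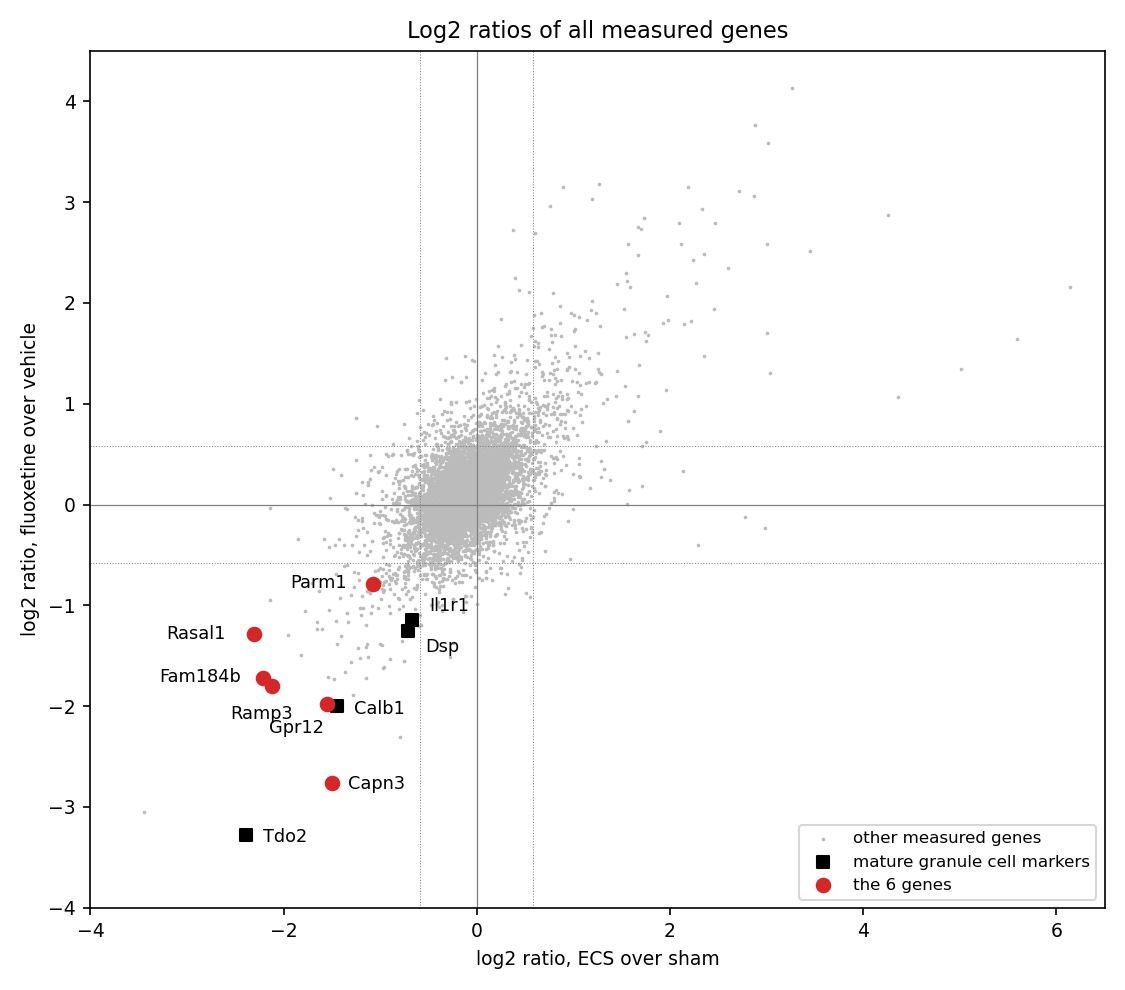
Log2 ratio of ECS over sham against that of fluoxetine over vehicle for the 7935 measured genes, 1 point per gene, with the 6 genes in red, the study's 4 mature GC markers as black squares and dotted lines at 1.5-fold. The 6 genes lie in the lower left corner, Gpr12 beside Calb1 and Capn3 between Calb1 and Tdo2 on the fluoxetine axis.

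The study's 4 markers of mature GCs were lower with both treatments as well. Calb1 had log2 ratios of -1.45 and -2.0, Tdo2, the gene of tryptophan dioxygenase, -2.39 and -3.28, Dsp (desmoplakin) -0.71 and -1.26, and Il1r1 (an interleukin-1 receptor) -0.67 and -1.14. After median-centring Il1r1 was at -0.56 with ECS, under 1.5-fold. All 4 had the larger decrease with fluoxetine. Of the 6 genes, Capn3 and Gpr12 shared this order, and Fam184b, Parm1, Ramp3 and Rasal1 had the larger decrease with ECS as deposited. After median-centring the order was the same in all 6 genes, although the difference was then only -0.05 for Parm1 and -0.09 for Ramp3. It turned in Ramp3 with the floor of 50. With the control arrays exchanged it turned in Fam184b (-1.93 with ECS and -2.02 with fluoxetine), Parm1 (-0.49 and -1.39) and Rasal1 (-1.68 and -1.93), so that only Ramp3 still had the larger decrease with ECS. The study itself lists Fam184b, Parm1 (by its dimmer probe set), Ramp3 and Rasal1 among the genes most lowered by ECS and also lowered by the SSRI. In that list the decrease of Ramp3 was slightly larger with the SSRI. The sizes listed there also differ from those here. With the SSRI they are smaller for Rasal1 and for the same probe set of Parm1, and slightly larger for Fam184b and Ramp3.

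The profile of each gene over the 4 arrays was set against those of the 7934 other measured genes, as the root mean square difference of median-centred log2 signals, each profile taken around its own mean. Of all these genes, the one nearest to Gpr12 was Calb1, at 0.057, followed by Pnck, a calmodulin-dependent kinase gene, at 0.095 and Cdhr1, a cadherin-related gene, at 0.14. The nearest to Capn3 were the Notch target Hes5 at 0.31 (signal 19.2 after fluoxetine), Tdo2 at 0.41 and Cdhr1 at 0.44. The distance is not scaled for the size of a change. With fluoxetine the decrease of Capn3 was at place 3 among 7935 genes, where few genes lie, so no distinct pattern is read from this. Fam184b and Ramp3 were each other's nearest gene, at 0.11. Rasal1 was nearest to Fam184b, at 0.16, then to Zfp503, a zinc finger gene, at 0.17 and to Frzb, a secreted Wnt antagonist, at 0.19. Zfp503 at 0.19 and Frzb at 0.23 followed for Ramp3, and Rasal1 and Frzb, at 0.16 and 0.17, for Fam184b. Parm1 was nearest to Upp1, which encodes uridine phosphorylase, at 0.034, to Crocc, which encodes the ciliary rootlet protein, at 0.037 and to Tub at 0.047. These distances rest on 4 arrays and describe them only. The genes described here were picked as shared decreases on these same arrays. The genes nearest to them were therefore bound to be mostly other genes lowered by similar amounts with both treatments. The likeness of Gpr12 to Calb1 is of this kind, and no link between the genes is read from it. The closeness of Fam184b, Ramp3 and Rasal1 rests on the signals under 50. With those set to 50, the log2 ratios with ECS were -2.21 for Fam184b, -0.90 for Ramp3 and -1.45 for Rasal1.

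The promoters of 3 of these genes are shown, chosen by profile. Fam184b and Ramp3 had the most similar profiles of the 6 as deposited, a closeness that depends on Ramp3 signals under 50. Gpr12 was the gene whose profile came nearest to Calb1. Such likenesses follow in part from how the genes were picked, and served here only to choose the promoters. The sequences are those of RefSeq (GRCm38.p6), from 250 bases before to 50 bases after a start site, written 5′ to 3′ on the strand of the gene. For Gpr12 the second of its 2 start sites is given. Capitals mark matches to the motifs named below.
Fam184b, chr5:45639452-45639751, minus strand: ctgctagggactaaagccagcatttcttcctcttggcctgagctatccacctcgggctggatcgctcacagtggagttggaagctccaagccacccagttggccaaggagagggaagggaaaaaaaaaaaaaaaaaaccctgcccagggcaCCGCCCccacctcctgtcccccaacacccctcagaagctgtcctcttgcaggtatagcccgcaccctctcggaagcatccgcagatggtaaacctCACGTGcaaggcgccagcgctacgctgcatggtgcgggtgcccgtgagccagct
Ramp3, chr11:6658283-6658582, plus strand: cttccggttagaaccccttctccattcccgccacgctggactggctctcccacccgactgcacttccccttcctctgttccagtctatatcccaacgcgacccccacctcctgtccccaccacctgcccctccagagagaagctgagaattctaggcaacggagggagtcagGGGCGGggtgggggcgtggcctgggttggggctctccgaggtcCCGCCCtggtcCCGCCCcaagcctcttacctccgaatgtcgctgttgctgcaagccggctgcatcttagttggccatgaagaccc
Gpr12, chr5:146584355-146584654, minus strand: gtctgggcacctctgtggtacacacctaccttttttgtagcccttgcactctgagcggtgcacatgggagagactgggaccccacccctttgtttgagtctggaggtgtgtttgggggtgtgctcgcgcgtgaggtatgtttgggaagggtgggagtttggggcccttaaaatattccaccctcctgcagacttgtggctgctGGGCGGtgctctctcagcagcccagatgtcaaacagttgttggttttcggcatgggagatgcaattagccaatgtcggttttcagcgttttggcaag

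Of the 6 genes, 5 were found in the promoter table, with 7 promoters. They were searched on both strands for the cyclic AMP response element TGACGTCA and its part TGACG, the AP-1 motif TGANTCA, the E-box CACGTG, the EGR motifs GCGTGGGCG and GCGGGGGCG, the D-box motifs TTATGTAA and TTACGTAA, and the SP motif GGGCGG, read as CCGCCC on the other strand. A match to the full cyclic AMP response element also counts for its part. The E-box occurred once, in Fam184b, at position -4 from the start site, and 7.15% of 32851 promoters and 10.2% of those of measured genes held it. The SP motif occurred 3 times in Ramp3 and once each in Fam184b and the promoter of Gpr12 shown, against 35.7% of all promoters and 64.0% of those of measured genes. None of the other letters occurred in the 7 promoters. The full cyclic AMP response element was held by 1.79% of all promoters and 3.02% of those of measured genes, TGACG by 20.8% and 31.8%, the AP-1 motif by 7.81% and 4.91%, the EGR motifs by 3.47% and 7.12% and the D-box by 1.06% and 0.705%. The promoter of Parm1, the 2 of Capn3 and the other one of Gpr12 held none of these motifs, and these letters may lie outside the window. A match is a run of letters and was not tested as a binding site.

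Of the 6 genes, 4 lie on chromosome 5 (Fam184b, Gpr12, Parm1 and Rasal1), Capn3 on chromosome 2 and Ramp3 on chromosome 11. Chromosome 5 held 6.44% of the measured genes with a known chromosome, and 10 of its 510 measured genes, or 1.96%, were lower at least 1.5-fold with both treatments, close to the share over all genes. The protein-coding genes on either side of the 6 were 12, of which 5 were measured, and none of those 5 was lower by 1.5-fold with either treatment. The log2 ratios (ECS, then fluoxetine) were -0.21 and 0.04 for Zfp106, beside Capn3, -0.15 and 0.11 for Med28, beside Fam184b, 0.09 and 0.24 for Usp12, beside Gpr12, and -0.10 and -0.03 for Rchy1, beside Parm1. Dtx1, beside Rasal1, had 0.24 and 0.66. No measured gene flanked Ramp3.

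**Figure D4:**
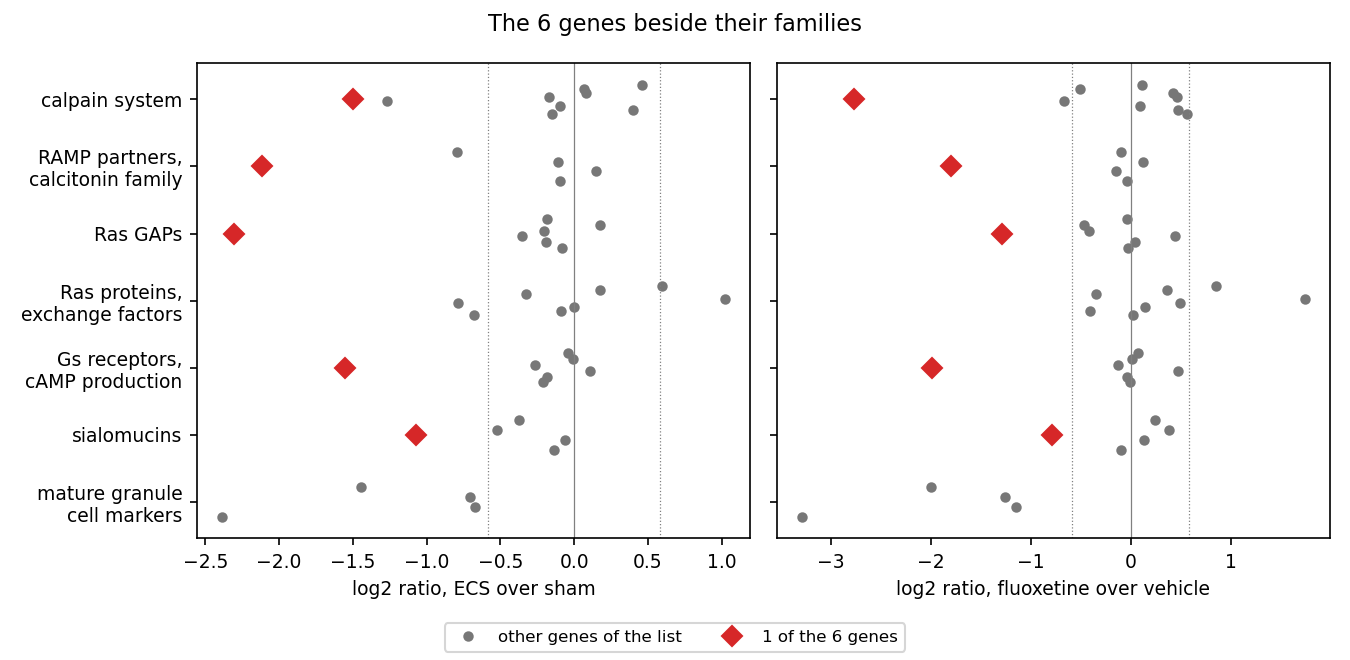
Log2 ratios with ECS (left) and fluoxetine (right) of measured genes in 6 lists of relatives and partners and of the study's 4 mature GC markers; grey points are single genes, red diamonds those of the 6 genes that belong to a list, and dotted lines 1.5-fold. Each red diamond lies to the left of every grey point of its own list in both panels, which was largely set by picking the red genes for low ratios. Most grey points of the lists of relatives lie within 1.5-fold.

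The relatives and partners of these genes were examined in 6 lists with 36 measured genes in all. The 6 genes were picked for low ratios, so nothing is read from their place below these relatives. With ECS 4 of the 36 relatives were lower and 2 higher, with fluoxetine 1 was lower and 2 were higher, and the medians of the 36 were -0.10 and 0.06. Over all measured genes, 6.47% were lower and 3.84% higher with ECS, 3.26% were lower and 8.49% higher with fluoxetine, and the medians were -0.10 and 0.12.

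In the calpain system, 1 of 8 measured genes other than Capn3 was lower with both treatments and none was higher, with medians of -0.02 and 0.27. This was Capn5, another calpain, at 317 in sham, 131 after ECS, 328 in vehicle and 207 after fluoxetine. The log2 ratios of Capn5 were -1.27 and -0.67, at a control spread of 0.21, and sham stood above vehicle by 0.45 on the centred scale. A second probe set of Capn5 was under the signal minimum. Capns1, the small subunit shared by the classical calpains, had 0.40 and 0.47, and Capn1, a classical calpain, 0.46 and 0.12. As deposited, Capn10 had -0.51 with fluoxetine in its brighter probe set, under 1.5-fold, and 0.06 in its dimmer. After median-centring the brighter was at -0.63 and so counted as lower.

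Among the RAMP partners and calcitonin family, 4 genes were measured besides Ramp3. Ramp1 had log2 ratios of 0.15 and -0.15 and Ramp2, the partner that also forms an adrenomedullin receptor, -0.10 and -0.04, so neither of the other RAMP genes differed by 1.5-fold. Crcp, which encodes a protein needed for signalling by this receptor, had -0.11 and 0.13. Calcrl, the receptor that RAMP proteins carry, was at 54.9 in sham, 31.6 after ECS, 129 in vehicle and 121 after fluoxetine. Its log2 ratios were -0.80 and -0.09, and -0.13 and -0.09 with signals below 50 set to 50, so its decrease with ECS rested on a signal under 50. The control pools of Calcrl also differed, with sham over vehicle at -0.73 on the centred log2 scale and a control spread of 0.36. The medians of this list were -0.10 and -0.07.

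Of 6 measured Ras GTPase-activating proteins other than Rasal1, none was higher or lower by 1.5-fold with either treatment, and the medians were -0.19 and -0.03. Rasa1 had -0.21 and -0.42, Nf1, the neurofibromin gene, 0.18 and -0.46, and Dab2ip -0.18 and -0.04. After median-centring Nf1 was lower with fluoxetine, at -0.59. Of 8 measured Ras proteins and exchange factors, which switch Ras on, 2 were higher with both treatments, 2 were lower with ECS only, and the medians were -0.05 and 0.25. Rasgrp1, an exchange factor that responds to diacylglycerol, was at 43.6 in sham, 88.4 after ECS, 61.6 in vehicle and 206 after fluoxetine. Its log2 ratios were 1.02 and 1.74, or 0.82 and 1.74 with signals below 50 set to 50, and a second probe set past the minimum had 0.84 and 1.67. Mras, a Ras protein, had 0.59 and 0.86. The exchange factors Sos2, at -0.68, and Rasgrp2, at -0.79, were lower with ECS, and had 0.02 and 0.49 with fluoxetine. The signal of Rasgrp2 after ECS was 47.4, and a second probe set of this gene past the minimum had only -0.13 and 0.07. After median-centring Sos2 was under 1.5-fold. Rasgrf1, a calcium-regulated exchange factor, had -0.33 and -0.34 in its brightest probe set, and -1.17 and -0.64 in its dimmest. Rasal1, picked for its decrease, and Rasgrp1, 1 of these 8 genes, differed from their controls in opposite directions with both treatments. The other genes of both lists did not all go the same way, and a shift of the Ras cycle was not tested.

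Of the close relatives of Gpr12, Gpr3 was under the signal minimum and Gpr6 was not analysed here. Of the other genes of cyclic AMP production, 6 were measured and none was higher or lower by 1.5-fold, with medians of -0.11 and 0.00. Gnas, the stimulatory G protein to which Gpr12 couples, had -0.21 and -0.01, and the adenylyl cyclase genes Adcy8, Adcy6 and Adcy9 had 0.11 and 0.47, -0.26 and -0.12, and -0.19 and -0.03. Of 4 measured sialomucins, membrane glycoproteins with mucin-like domains as in Parm1, none was higher or lower by 1.5-fold, and the medians were -0.26 and 0.19. Podxl had -0.14 and -0.10, Cd34 -0.52 and 0.38, and Cd164 -0.38 and 0.25. Fam184a, the paralog of Fam184b, was not analysed here.

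Markers of cell types show what else differed between the pools. Their counts stand against shares of 3.84% higher and 6.47% lower with ECS, and 8.49% higher and 3.26% lower with fluoxetine, over all measured genes. Of 7 measured genes of GC identity, 2 were lower with ECS and 1 with fluoxetine (medians -0.27 and -0.00). Lct had -0.59 and -1.10, with -0.48 for ECS after median-centring, and Trpc6 had -1.06 and -0.08. Prox1, the fate determinant of GCs, had -0.19 and 0.22, and its signal was between 98.3 and 180 on the 4 arrays. None of 10 pan-neuronal genes was lower, 3 were higher after ECS and 2 after fluoxetine, and the medians were 0.24 and 0.34. Their summed signal went from 18162 to 22954 with ECS and from 25150 to 34323 with fluoxetine. Most of this came from the neurofilament genes Nefl (3953 to 6658 and 5067 to 8769) and Nefm (1213 to 2705 and 1919 to 5264). Both were higher with both treatments, Tubb3 was higher with ECS only, and the other genes of this list were within 1.5-fold. Among 9 genes of immature GCs and neuroblasts, 5 were higher after ECS, 4 were higher after fluoxetine and 0 were lower (medians 0.60 and 0.47). Their sum went from 6674 to 8808 and from 9515 to 12261. Of 10 interneuron markers 2 and 4 were higher (medians 0.35 and 0.29). Among these Npy, which encodes neuropeptide Y, stood out with log2 ratios of 2.72 and 3.11, from 757 in sham to 4978 after ECS and from 870.0 in vehicle to 7522 after fluoxetine. In the CA1 and CA3 pyramidal cell list the medians were -0.12 and -0.14 over 5 genes, with 1 higher and 1 lower with each treatment. The medians of glial and vascular lists were 0.02 and 0.37 for 10 astrocyte genes, -0.07 and 0.31 for 9 microglia genes, -0.10 and 0.12 for 9 oligodendrocyte genes and 0.10 and 0.06 for 7 endothelial genes. The 4 measured genes of choroid plexus and meninges had medians of -0.08 and 0.50, and they did not go the same way. Col1a2 had 1.02 and 1.58, Dcn 0.22 and 1.32, and Kl -0.39 and -0.76. The choroid plexus genes Ttr and Folr1 were under the signal minimum. Gfap, the intermediate filament gene of astrocytes, was far from the median of its list, with 2.24 and 2.43 in one probe set and 2.19 and 2.19 in the other. In these 5 lists, 2 and 10 genes were higher and 2 and 1 lower, with ECS and fluoxetine respectively. The part of cell composition in the decreases of the 6 genes was not tested.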

How the data were processed

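For each group, pooled DG RNA was measured on a single Affymetrix array (mouse genome 430A 2.0). The deposited table holds MAS5 signal intensities on a linear scale, made by the authors from the probes of each probe set and without scaling of the arrays to a common level. Of 22690 probe sets, the 64 controls were left out, and 13422 with a mean signal of at least 50 were kept, after the study's filter. Names came from the platform annotation, in which 20380 of the other probe sets have 1 gene, 691 several and 1555 none; only single genes were named. Where a gene had several probe sets, the brightest was used. Log2 ratios of treated to control signal were computed with Python 3.11.15, numpy 2.4.6 and pandas 2.3.3, and figures with matplotlib 3.10.9. A signal of 0 was to be taken as 0.1, which no measured probe set needed. The steps were tested on simulated data. No statistical test was possible with 1 array per group, and the number of arrays limits the precision. The 6 genes and all lists were chosen with earlier results of these data known. Genes were named if they were members, among the 3 members of a list with the largest mean change, markers of the study, nearest in profile, or neighbours on the chromosome; the others (Capn10, Ramp1, Sos2, Rasgrp2, Gnas, Prox1, Gpr3, Gpr6, Ttr, Folr1 and Fam184a) were named after their values were seen. RefSeq symbols and promoters (GRCm38.p6) were matched by gene identifier. Alternatives were median-centring, quantile normalization, a floor of 50, a pseudocount of 16, the mean over probe sets, no signal filter, sizes of 1.2-fold and 2-fold, and exchanged control arrays.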

Additional observations from a re-analysis of the deposited data

How the results depend on the processing

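The count of 6 genes lower at least 1.5-fold with both treatments was the same under median-centring, quantile normalization, the floor of 50, the pseudocount of 16, the mean over probe sets, no signal filter and the size of 1.2-fold, and it was 5 at 2-fold. The median log2 ratio with ECS, -1.84 as deposited, was -1.47 with signals below 50 set to 50 and -1.48 with the pseudocount of 16, settings that by construction shrink ratios of low signals. With the control arrays exchanged and median-centred it was -1.57, against -1.73 with median-centring alone. That shift is smaller than 0.26, the median control spread of the 7 probe sets. The count was then 5 in place of 6, so the count depended on the control pool. The median with fluoxetine moved by less than the control spread under every alternative run. Of the 14 ratios of the 7 probe sets, none changed direction. Under median-centring and quantile normalization all 14 moved by less than their control spread. Under the floor 2 moved by more, and with the pseudocount 4. With the control arrays exchanged and median-centred, 10 moved by more from the deposited ratios, and the brighter Parm1 probe set with ECS was under 1.5-fold. Part of that shift is the centring. For Fam184b the exchanged ratios (-1.93 and -2.02) lay within its control spread of the median-centred ones (-2.10 and -1.84). No paired analysis was possible because each group is 1 array, and for the same reason no replicate could be left out. Signals under 50 limit the size of the decreases of Ramp3 and Rasal1.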
